A study of Mus musculus with 63 samples.

Results

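PDGFR-β+ cells, the stromal, pericyte and fibroblast fraction of the kidney cortex, were compared between sham-operated mice and mice whose obstructed ureter had been reopened. The libraries were chosen by their column names, those of PDGFR-β+ cells from sham and from R-UUO kidneys, which gave 8 of the 63 libraries of the series, 4 in each group. All 2110 miRNA loci of the count table were considered; 1115 had a count in at least 1 of the 8 libraries, and 477 passed the filter on low counts and were tested. The question was which of the changes seen during obstruction remained after reversal. In the wider study, 4 cell populations were sorted by FACS from digested cortex of sham kidneys and after 2 days (UUO-2) or 7 days (UUO-7) of unilateral ureteric obstruction or its reversal, and their small RNA was sequenced. All mice were male C57BL/6 animals of 8 to 12 weeks. In R-UUO a silk ligature closed the ureter for 7 days while a silastic tube above it limited dilatation, the ureter was then reimplanted into the bladder, and the kidney was taken 14 days later. Of 5 mice per group, the 4 whose kidney level of Havcr1 (KIM-1, a tubular injury marker) lay nearest the group mean were sequenced, which can narrow the spread between animals. PDGFR-β+ cells were gated as CD45- and CD31-. One library is one sorted sample of one mouse, so that fewer cells of a subtype and less miRNA per cell cannot be told apart. UUO-7 holds 3 libraries of these cells and serves as the second point of reference.

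PDGFR-β is the receptor through which PDGF-B drives pericytes and fibroblasts to migrate and divide. In the obstructed kidney these cells leave the capillary wall, gain contractile and matrix-producing properties and lay down scar collagen. A miRNA is cut from a hairpin into a 5p and a 3p arm, and a mature arm represses messenger RNAs that pair with its seed, bases 2 to 8. Members of a family share the seed and therefore many targets, so that the seed is given for miRNAs that moved together and for miRNAs that moved apart.

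The mature sequences of the miRNAs on which the results turn, from RefSeq (GRCm38.p6), are given 5′ to 3′ with the seed in capitals. The first lines hold miRNAs that were higher in R-UUO than in sham, grouped by shared seed.
miR-21a-5p: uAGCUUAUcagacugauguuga
miR-146a-5p: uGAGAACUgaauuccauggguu
miR-146b-5p: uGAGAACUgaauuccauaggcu
miR-155-5p: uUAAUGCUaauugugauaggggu
miR-199a-5p: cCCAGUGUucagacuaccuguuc
miR-214-3p: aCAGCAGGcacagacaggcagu
miR-125b-5p: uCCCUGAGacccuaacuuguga
miR-100-5p: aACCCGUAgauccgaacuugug
miR-99a-5p: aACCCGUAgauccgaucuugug
miR-148a-3p: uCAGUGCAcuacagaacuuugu
miR-181a-5p: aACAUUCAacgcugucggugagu
The next lines hold miRNAs that were lower in R-UUO, beside relatives with their seed that were not.
miR-29c-3p: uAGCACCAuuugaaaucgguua
miR-29a-3p: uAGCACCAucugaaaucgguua
miR-338-3p: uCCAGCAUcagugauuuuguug
miR-27b-3p: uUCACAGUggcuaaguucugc
miR-15a-5p: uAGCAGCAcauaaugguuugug
miR-15b-5p: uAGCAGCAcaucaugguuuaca
miR-322-5p: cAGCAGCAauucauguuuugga
Among the 477 tested loci, 428 matched a RefSeq mature sequence.

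Total counts per library ran from 2732682 to 7932031 in sham and from 4078086 to 8769219 in R-UUO, and an exact permutation test found no difference (2-sided, p = 0.6286, smallest possible 0.0286). Levels are CPM, the counts of a locus scaled to library size with TMM factors; 3 counts were worth between 0.331 and 1.07 CPM. The label of the sort was borne out by its defining miRNAs: miR-143 and miR-145a together made 244500 to 273400 CPM (here and for other marker sums without TMM factors) in sham PDGFR-β+ libraries, against at most 16410 in any sham library of the other populations. R-UUO replicate 1 stood apart from the other R-UUO libraries (r of log2 CPM 0.924 to 0.953 with them, 0.982 to 0.983 among them). Among the 230 loci called at UUO-7, it lay nearer the UUO-7 mean than the sham mean at 215 (93.5%), and R-UUO replicates 2, 4 and 5 did so at 146, 153 and 144. The counts of calls between sham, UUO-7 and R-UUO, and list counts that it moves, are therefore given with and without it. Counts of loci without overlap, of arms and of seeds are given with it only.

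Reversal for 14 days left most of the obstruction signature in place. A locus was called when its Benjamini-Hochberg adjusted p in edgeR's quasi-likelihood test was under 0.05 and its fold above 1.5. In R-UUO against sham 199 of 477 tested loci (41.7%) were called, 133 higher (27.9%) and 66 lower (13.8%), and the 4 values of each group did not overlap at 185 loci (38.8%). UUO-7 against sham gave 230 calls (48.2%), 162 higher (34%) and 68 lower (14.3%). Both comparisons use the same 4 sham libraries. Of the 230 loci called at UUO-7, 171 (74.3%) were called again in R-UUO in the same direction, 120 higher and 51 lower, and 0 in the opposite direction. A further 59 were called at UUO-7 alone, and 28 in R-UUO alone. The median difference of the 162 loci higher at UUO-7 was 2.59 on the log2 scale at UUO-7 and 2.10 in R-UUO, and that of the 68 lower loci was -1.28 and -0.93, beside a median over all tested loci of 0.50 and 0.40.

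Without R-UUO replicate 1, 158 loci were called in R-UUO against sham, 148 of them among the 199, and 134 of 228 loci called at UUO-7 (58.8%) were called again. The direct comparison of R-UUO with UUO-7 depended most on single libraries. It gave 19 calls (3.98%), 15 higher (3.14%) and 4 lower (0.839%) in R-UUO, but 75 (22 higher, 53 lower) without R-UUO replicate 1. It gave 8, 11 and 12 calls without R-UUO replicates 2, 4 and 5, and 10, 11 and 3 without UUO-7 replicates 2, 4 and 5. Scaling moved the balance of directions: with library size as the only scaling the median of all loci was 0.69 and 178 loci were called higher and 35 lower, and with DESeq2 size factors in the same test the median was 0.23 and the split 109 to 87. Changes below are on the TMM scale.

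**Figure D1:**
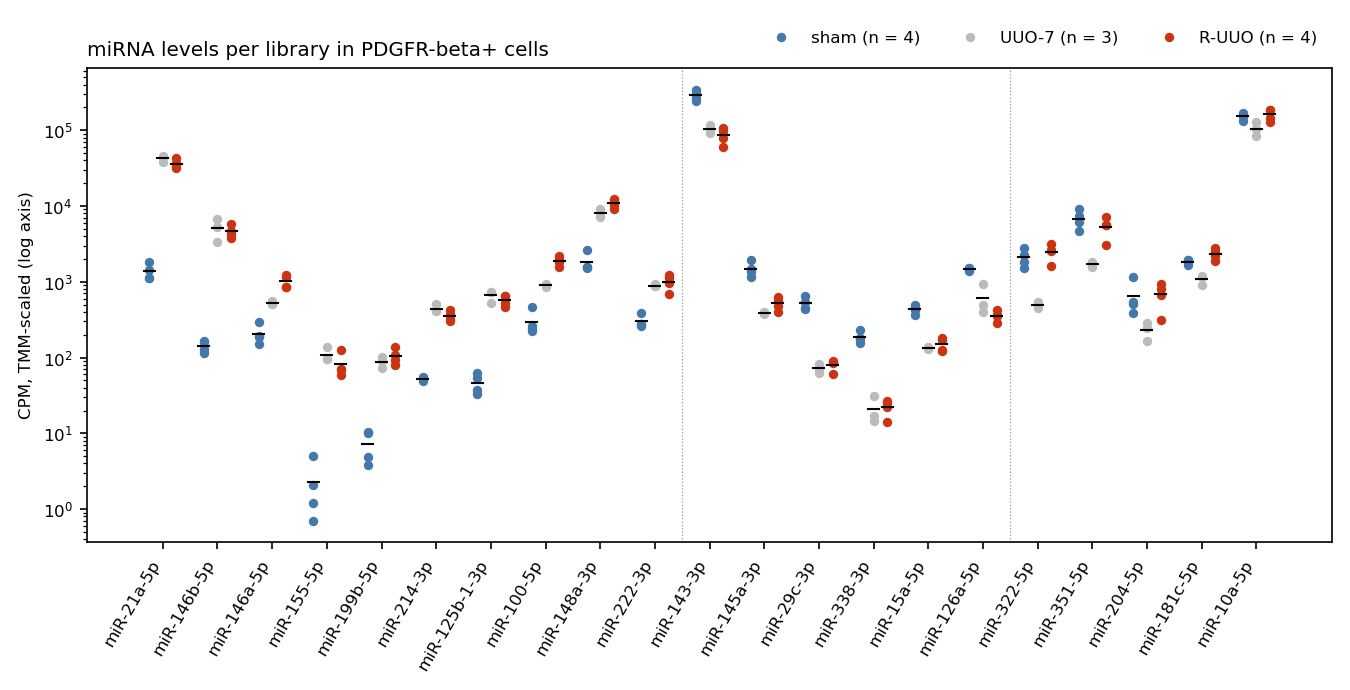
CPM of 21 miRNAs in each PDGFR-β+ library of sham, UUO-7 and R-UUO on a log axis; a point is a library and a bar the group mean. The first 10 miRNAs stayed above sham and the next 6 below it in every R-UUO library, and the last 5 overlapped sham after reversal.

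The miRNAs induced by NF-κB or CREB signalling gave some of the steepest differences that remained. Of the 12 loci in this list, 9 were tested and 9 were higher in R-UUO, with no overlap between the groups at any of them (median log2 difference 3.70 against 0.40 over all tested loci). miR-146b-3p and miR-155-3p passed the filter only through the groups in which they were present, and with both set at the bound that 3 counts per sham library allow the median was 2.58. miR-146b-5p (chr19:46342790-46342811, GRCm38, plus strand, in an intron of Mfsd13a) dampens Toll-like receptor signalling by repressing Irak1 and Traf6. It measured 164, 159, 131 and 115 CPM in sham and 3742, 4320, 5790 and 4621 CPM in R-UUO. Every R-UUO library lay more than an order of magnitude above every sham library, and the difference was 32.4-fold (log2 5.02, SE 0.24, adjusted p = 4.32e-10, edgeR). At UUO-7 the same locus stood at 5348, 3358 and 6628 CPM, and no change was called during reversal (R-UUO minus UUO-7 -0.15 on the log2 scale, adjusted p = 0.79).

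miR-146a-5p (chr11:43374435-43374456, minus strand, outside annotated protein-coding and lncRNA genes) shares the seed of miR-146b-5p and rose from 191, 292, 184 and 151 CPM in sham to 858, 840, 1230 and 1169 CPM in R-UUO. The difference was 5.00-fold (log2 2.32, SE 0.20, adjusted p = 1.63e-07). It went on rising after release of the obstruction: UUO-7 held 509, 559 and 502 CPM, below every R-UUO library (R-UUO minus UUO-7 0.97, adjusted p = 0.017). miR-155-5p (chr16:84714143-84714165, in an exon of Mir155hg), which promotes inflammatory activation, measured 2.10, 1.21, 4.99 and 0.70 CPM in sham and 126, 59.0, 71.0 and 69.4 CPM in R-UUO. The sham values rest on few reads, and the difference was 36.8-fold (log2 5.20, SE 0.51, adjusted p = 6.43e-07). Its other arm, miR-155-3p, was at 0 in every sham library and at 3.86 to 7.63 CPM in R-UUO, at least 6.39-fold higher, and miR-146b-3p likewise was at least 3.56-fold higher. The CREB-induced pair on chromosome 11 rose too: miR-212-5p from 4.21, 5.54, 2.14 and 3.5 to 41.4, 67.6, 51.2 and 44.4 CPM, miR-212-3p by 2.58 and miR-132-3p by 2.13 on the log2 scale.

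Macrophages carry several of these miRNAs, so the leukocyte markers were read beside them. The summed leukocyte list (miR-142a, miR-223 and miR-511) was 41.9 to 138 CPM in sham and 108 to 163 CPM in R-UUO, a median of 0.387% of the level in R-UUO macrophages. The inflammation list in the same R-UUO PDGFR-β+ libraries reached 13.0% of its level in R-UUO macrophages. Of 6 leukocyte loci, 5 were tested. miR-142a-3p rose from 0.98, 0.96, 0.71 and 1.75 to 6.83, 2.85, 6.63 and 5.14 CPM, and miR-142a-5p rose by 0.94 on the log2 scale, a call lost without R-UUO replicate 4 (0.80) or sham replicates 1 or 4 (0.75 and 0.86). Both arms of miR-511, encoded in an intron of the mannose receptor gene Mrc1, fell: miR-511-3p from 5.05, 6.03, 3.92 and 4.90 to 0, 0, 0.77 and 0.86 CPM. miR-223-3p was not called (log2 -0.32), but sham replicate 3 held 39.9 CPM against 2.17 to 2.80 in the other sham libraries, and without it the locus was called higher (log2 1.85).

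miR-21a, the miRNA most widely tied to kidney fibrosis, gained more CPM than any other tested locus. miR-21a-5p (chr11:86584120-86584141, minus strand, in an annotated exon of Vmp1) was at 1804, 1117, 1420 and 1124 CPM in sham and at 43001, 33404, 31998 and 36389 CPM in R-UUO. The lowest R-UUO library lay far above the highest sham library, a 26.5-fold difference (log2 4.73, SE 0.24, adjusted p = 6.4e-10). UUO-7 held 37934, 45727 and 44864 CPM, and no difference from R-UUO was called (log2 -0.24, adjusted p = 0.62). The passenger arm miR-21a-3p rose with it, from 20.6, 6.03, 8.55 and 2.80 to 213, 296, 206 and 317 CPM.

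The mesenchymal miR-199 and miR-214 family rose as a whole: 8 of 8 tested loci were higher and 8 did not overlap sham, with a median log2 difference of 2.74 in R-UUO and 2.37 at UUO-7. miR-199a-5p and miR-214-3p are cut from one long transcript, Dnm3os, which runs antisense inside an intron of Dnm3. miR-199a-5p (chr1:162217844-162217866) measured 387, 496, 429 and 398 CPM in sham and 3324, 2601, 2763 and 2576 CPM in R-UUO (6.59-fold, log2 2.72, SE 0.13, adjusted p = 4.32e-10). miR-214-3p (chr1:162223438-162223459) measured 53.2, 53.0, 55.6 and 49.7 CPM in sham and 324, 418, 305 and 381 CPM in R-UUO (6.75-fold, log2 2.75, SE 0.15, adjusted p = 1.06e-09). Both groups were tight, and the gap between them was many times their spread. miR-199b-5p rose further from a lower level, from 10.2, 3.86, 10.3 and 4.90 to 137, 94.2, 108 and 79.3 CPM (log2 3.82). Its locus lies within an intron of Dnm1, and its strand was not available here. miR-199a-3p and miR-199b-3p have one mature sequence and their loci cannot be separated; they rose by 2.21 to 2.27.

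Of the 2 duplicated clusters on chromosomes 9 and 16, miR-125b and miR-100 or miR-99a rose at both copies. The let-7 5p arms were not called, with log2 differences of -0.48 for let-7a-5p on chromosome 9 and 0.03 for let-7c-5p on chromosome 16. Each has a further locus of the same name, on chromosome 13 or 15, so that its reads cannot be assigned to these clusters. The other arm of the chromosome 16 let-7 hairpin, let-7c-1-3p, was called higher (log2 2.68). It rests on 0 to 5 reads per sham library and 8 to 51 per R-UUO library. miR-125b-5p at chr9:41581940-41581961 measured 564, 407, 473 and 337 CPM in sham and 4160, 2934, 2879 and 2745 CPM in R-UUO (7.14-fold, log2 2.84, SE 0.22, adjusted p = 6.6e-08), and the copy on chromosome 16, whose mature sequence is the same, differed by 2.81. The other arm of the chromosome 9 hairpin, miR-125b-1-3p, which is unique to it, rose from 62.7, 37.1, 53.4 and 32.9 to 465, 650, 524 and 641 CPM (log2 3.61). miR-100-5p (chr9:41531437-41531458) moved on between the end of obstruction and the end of reversal: sham held 462, 260, 227 and 238 CPM, UUO-7 915, 927 and 864 CPM, and R-UUO 1798, 2154, 1580 and 2020 CPM. The 3 groups did not overlap, with R-UUO highest (R-UUO minus sham 2.67, adjusted p = 1.63e-07; R-UUO minus UUO-7 1.07, adjusted p = 0.019). Its chromosome 16 counterpart miR-99a-5p, which differs from it at 1 base outside the seed, rose by 1.38 against sham and was not called against UUO-7 (log2 0.03). miR-99b-5p, the third member of this seed, was the only locus called in R-UUO against both sham and UUO-7 and not at UUO-7 against sham, with 3877, 4364, 2999 and 3389 CPM in sham and 6123, 7434, 5694 and 7063 CPM in R-UUO.

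miR-148a-3p (chr6:51269829-51269850, between genes) rose from 2651, 1561, 1529 and 1565 to 12163, 9218, 12335 and 10210 CPM (6.01-fold, log2 2.59, SE 0.20, adjusted p = 5.5e-08). The miR-181 family, with 9 of 10 tested loci higher (median 1.62), included one of the most abundant miRNAs of these cells: miR-181a-5p on chromosome 2 rose from 12501, 10440, 11546 and 12048 to 29538, 36590, 42564 and 34442 CPM. Reads of the 2 miR-181a-5p loci cannot be told apart. The growth-factor-induced pair miR-221 and miR-222, which represses Cdkn1b and Kit, rose at 4 of 4 loci, miR-222-3p from 389, 265, 275 and 274 to 695, 948, 1109 and 1241 CPM and miR-221-3p by 1.34 on the log2 scale. The other loci with the steepest rises were low: miR-1247-3p (0.96 to 2.85 CPM in sham, 17.3 to 30.2 in R-UUO), miR-298-5p (1.07 to 18.1 and 91.1 to 176 CPM), miR-139-3p (0 to 0.28 and 1.1 to 4.07 CPM) and miR-452-5p, which was at 0 in sham and at least 1.96-fold higher.

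The miRNAs that were lower included the most abundant one. miR-143-3p (chr18:61649199-61649219, between genes), which with miR-145a keeps smooth muscle cells and pericytes contractile, measured 269440, 342180, 242430 and 304320 CPM in sham and 59463, 97031, 79106 and 107290 CPM in R-UUO. The groups were far apart, and the locus fell by 1.76 on the log2 scale (SE 0.21, adjusted p = 7.74e-06), to 6.48% to 11.7% of all counts of a library from 24.2% to 27.1%. All 4 loci of this cluster fell, by a median of 1.43, beside 1.38 at UUO-7. miR-145a-3p fell from 1472, 1960, 1163 and 1350 to 395, 580, 479 and 622 CPM. miR-145a-5p fell less evenly, from 1056, 1433, 614 and 1008 to 740, 323, 539 and 331 CPM, and here the groups overlapped.

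In the miR-29 family, whose targets are collagens and other matrix genes, the clear loss was that of miR-29c. Of 7 tested loci 3 fell, and 2 of these are the copies of miR-29b-3p, which have one mature sequence. They held 11.4 to 33.0 CPM in sham and 2.85 to 16.3 CPM in R-UUO, where replicate 1 lay within the sham range at 1 copy and at its lower edge at the other. With loci of one name summed, 1 of 5 was lower and miR-29b-3p was not called. miR-29c-3p (chr1:195037600-195037621, in an exon of the lncRNA A330023F24Rik) measured 448, 641, 436 and 544 CPM in sham and 60.5, 86.3, 89.1 and 85.1 CPM in R-UUO. It fell by 2.69 on the log2 scale (SE 0.18, adjusted p = 1.46e-08) and was not called against UUO-7 (81.8, 62.4 and 71.4 CPM, log2 0.16). miR-29a-3p, with the same seed and 1 base changed outside it, was at 1142, 1081, 1156 and 1066 CPM in sham and 1272, 807, 935 and 890 CPM in R-UUO, overlapping and not called (log2 -0.19, SE 0.14, adjusted p = 0.299).

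miR-338-3p (chr11:120014781-120014802, minus strand, in an intron of Aatk) fell from 155, 229, 175 and 179 to 14.3, 22.4, 26.7 and 25.1 CPM (log2 -3.06, SE 0.26, adjusted p = 1.6e-07), and its other arm miR-338-5p from 14.3, 31.3, 16.4 and 38.5 to 1.61, 2.20, 1.66 and 1.29 CPM. The loci named miR-3065 lie on the opposite strand of the same hairpin and hold nearly or exactly the same counts, so that their fall cannot be separated from that of miR-338. The miR-23/27/24 clusters gave 6 loci lower and 1 higher of 10 tested (median -0.68), and 5 lower and 1 higher without R-UUO replicate 1 (median -0.63). Their chief product miR-27b-3p (chr13:63300760-63300780, in an exon of 2010111I01Rik) measured 55332, 63613, 50984 and 58065 CPM in sham and 23465, 36898, 27423 and 36241 CPM in R-UUO, a fall of 0.88. With library size as the only scaling none of the 6 lower calls of these clusters remained, while their median was still negative (-0.38). The exception, miR-27a-5p, rose by 2.24 from 2.10 to 3.21 CPM in sham to 7.93 to 21.3 CPM in R-UUO, while its own other arm miR-27a-3p fell by 0.69.

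The lower calls also held the markers of endothelial cells and some of those of epithelial cells, which were sorted into populations of their own. miR-126a, the endothelial miRNA of the Egfl7 gene, and the overlapping miR-126b fell at 4 of 4 loci: miR-126a-5p from 1536, 1424, 1366 and 1535 to 288, 421, 364 and 356 CPM (log2 -2.03, SE 0.29, adjusted p = 3.74e-05). The summed endothelial list was 2813 to 3517 CPM in sham and 825 to 1121 in R-UUO, medians of 1.63% and 0.529% of the level in the endothelial cell libraries. Among epithelial markers 3 of 11 tested loci fell and 0 rose (median -0.93), with sums of 2515 to 4336 CPM in sham and 1176 to 2729 in R-UUO. Over all tested loci 13.8% were lower. The epithelial count was 2 lower without R-UUO replicate 1 and with library size alone (median -0.66 in each), and 4 lower with DESeq2 size factors. As a share of the level in proximal tubule libraries of the same condition, whose own sums were lower in R-UUO, the epithelial medians were 1.65% in sham and 2.95% in R-UUO. The part of these populations in other lower calls was not tested. Smaller loci with steep falls were miR-5119 (27.9 to 156 CPM in sham, 4.75 to 20.4 in R-UUO), miR-874-3p (14.0 to 47.4 and 2.81 to 11.6), miR-3105-3p (0.72 to 6.03 and 0 to 0.66) and miR-3102-5p.2-5p (2.81 to 9.16 and 0.77 to 2.20). The call of miR-3105-3p was lost without sham replicate 1 or R-UUO replicate 4 (log2 -2.40 and -2.95), and that of miR-3102-5p.2-5p without sham replicate 2 (-1.34).

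**Figure D2:**
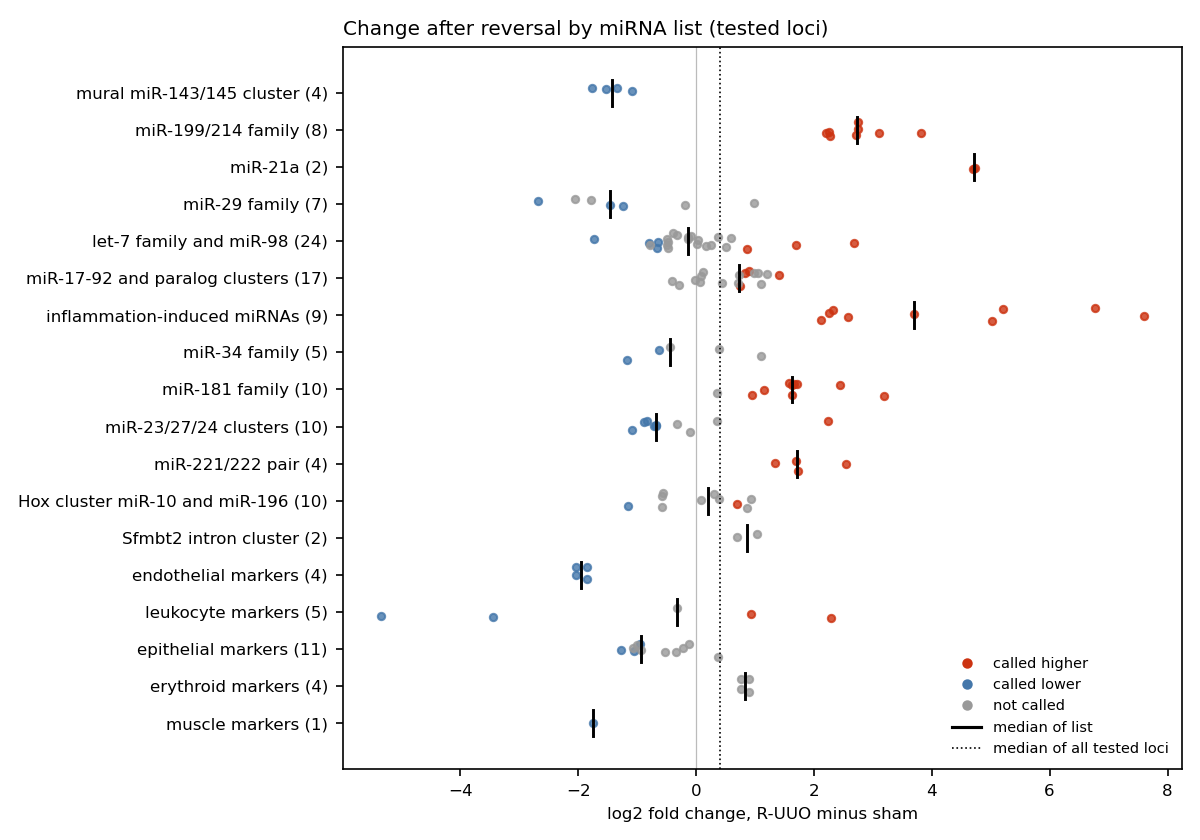
Log2 difference R-UUO minus sham of each tested locus in 18 miRNA lists, with the number tested in parentheses; colour gives the call, the short bar the list median and the dotted line the median of all tested loci (0.40). The miR-199 and miR-214, miR-21a, inflammation-induced and miR-221 and miR-222 lists lie wholly among higher calls, and the miR-143 and miR-145 and endothelial lists wholly among lower calls.

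One chromosomal stretch had returned in part. The X-linked hairpins from miR-450 to miR-322 (chrX:53048044-53054327, between genes), singled out after their values were seen, hold miR-322, the mouse counterpart of human miR-424, with miR-503, miR-351, miR-542 and miR-450, which are known to restrain the cell cycle. Of 11 tested loci 10 fell at UUO-7 (median log2 -2.23) and 4 were still lower in R-UUO (median -0.70), and 7 were higher in R-UUO than at UUO-7. Their summed level was 7143 to 14060 CPM in sham, 2308 to 2627 CPM at UUO-7 and 5010, 9068, 8947 and 11550 CPM in R-UUO. R-UUO replicate 1 was the lowest of the 4 R-UUO libraries at all 11 loci, and without it 8 were higher than at UUO-7 and 3 lower than in sham.

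Within that stretch, miR-322-5p (chrX:53054306-53054327) measured 2766, 2261, 1536 and 1847 CPM in sham, 513, 539 and 445 CPM at UUO-7 and 1614, 2526, 2619 and 3132 CPM in R-UUO. R-UUO overlapped sham (log2 0.23, SE 0.22, adjusted p = 0.399) and lay above every UUO-7 library (log2 2.31, adjusted p = 7.1e-05). miR-351-5p followed the same course at a higher level, 4608 to 9156, 1568 to 1810 and 3074 to 7133 CPM. The 2 miR-450a-5p loci had come only part of the way, from 6.38 to 13.9 CPM at UUO-7 to 9.84 to 51.0 CPM in R-UUO, and were still called lower than sham (34.6 to 118 CPM), 1 of them not without sham replicate 1 (log2 -0.90). miR-542-5p fell at UUO-7 and was still lower in R-UUO, by 1.98.

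Elsewhere in the genome miR-204-5p, in an intron of Trpm3, and miR-181c-5p had also come back. miR-204-5p measured 391 to 1139 CPM in sham, 167 to 289 at UUO-7 and 313, 806, 673 and 938 in R-UUO. miR-181c-5p measured 1921, 1798, 1682 and 1955 CPM in sham, 1140, 1202 and 901 CPM at UUO-7 and 1858, 2789, 2208 and 2574 CPM in R-UUO. Both overlapped sham after reversal and neither was called against it (adjusted p = 0.86 and 0.0575). miR-23b-3p had risen from UUO-7 (log2 0.59) and was still lower than in sham by 0.67. Of the 4 loci that had fallen since UUO-7, 3 were the arms of miR-142a and the overlapping miR-142b, and the last was miR-296-3p; they had 2.85 to 134 CPM in R-UUO and 13.9 to 406 CPM at UUO-7. In all, 59 loci called at UUO-7 were not called in R-UUO, and 6 of these were also called between R-UUO and UUO-7. Without R-UUO replicate 1 these counts were 94 and 54.

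The imprinted Dlk1-Dio3 domain, a maternally expressed run of miRNA genes on chromosome 12 (chr12:109572004-109743784 for the tested loci), was decided by 1 library. Of 116 loci 57 were tested, 9 of them at 0 in every sham library. With only the sham and R-UUO libraries in the fit 17 passed the filter, and 2 of these were called higher (median log2 2). The remaining loci passed only with UUO-2 and UUO-7 included, and UUO-7 is where the domain was high. Counts and medians over the 57 are therefore set in part by how the loci were admitted. At UUO-7 51 of the 57 were higher (median log2 4.53). In R-UUO 23 were called higher and 0 lower (median 2.6, or 2.08 with the 9 loci at their bound), yet the groups did not overlap at only 2 of the 57. The summed level was 292 to 975 CPM in sham and 10570, 5339 and 13560 CPM at UUO-7. In R-UUO it was 8946 CPM in replicate 1 and 985, 986 and 399 CPM in replicates 2, 4 and 5. Replicate 1 was the highest R-UUO library at all 57 loci; without it 46 loci were tested, 0 were called against sham (median 0.48) and 43 were called lower than at UUO-7.

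The most abundant member, miR-127-3p (chr12:109592888-109592909, antisense to Rtl1), shows the pattern. It measured 485, 297, 385 and 147 CPM in sham, 4819, 2490 and 5762 CPM at UUO-7 and 3856, 507, 459 and 202 CPM in R-UUO (log2 1.93, adjusted p = 0.0345; 0.23 and not called without replicate 1). miR-134-5p went from 0.42, 0, 0 and 0 CPM in sham to 24.0, 9.03 and 41.7 CPM at UUO-7 and 14.3, 0.66, 1.1 and 0 CPM in R-UUO, and miR-433-3p held 13.3 CPM in R-UUO replicate 1 and 0.22 to 1.33 CPM in the others. Of the 8 loci with the steepest rise at UUO-7, 7 were of this domain: miR-382-5p, miR-494-3p, miR-1193-3p, miR-487b-3p, miR-134-5p, miR-433-3p and miR-376a-5p. Each was at 3.21 CPM or more in R-UUO replicate 1 and at 1.33 CPM or less in the other R-UUO libraries. In sham, miR-134-5p and miR-433-3p had 3 and 2 reads in replicate 1 alone, and the others named had 0 in every library. Their fitted rises depend on the prior count and are no bound, so that their rank is no measure of the size of the rise. miR-154-5p, also of the domain, was at 0 in sham and at 8.24, 0.66, 1.21 and 2.14 CPM in R-UUO.

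**Figure D3:**
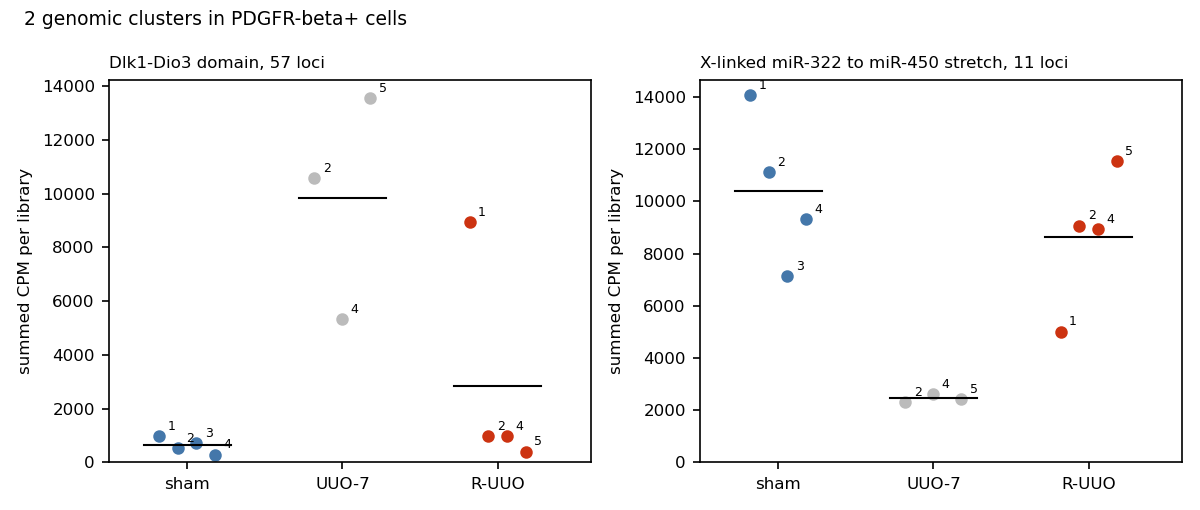
Summed CPM per library (numbers are replicates, bars group means) of the 57 tested loci of the Dlk1-Dio3 domain and the 11 of the X-linked stretch. R-UUO replicate 1 stood at 8946 CPM in the first, with the UUO-7 libraries, and was the lowest R-UUO library, at 5010 CPM, in the second.

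Other families moved little or depended on scaling. In the let-7 family and miR-98, 3 of 24 tested loci were higher and 4 lower (median -0.13), but 5 higher and 0 lower with library size alone and 3 higher and 8 lower with DESeq2 size factors. Without R-UUO replicate 1 the let-7 count was 3 higher and 1 lower, and without sham replicates 2 or 4 it was 3 higher and 2 lower. In miR-17-92 and its paralogs, proliferation miRNAs, 4 of 17 were higher and 0 lower (median 0.74), with 7 and 1 higher under these scalings and 2 higher without R-UUO replicate 4 or sham replicates 1, 2 or 3. The miR-17-92 count was 3 higher without R-UUO replicate 1. In the miR-34 family, induced by p53, 2 of 5 fell, miR-34b-3p from 15.0, 20.5, 10.3 and 24.5 to 6.63, 5.49, 8.72 and 10.3 CPM, and neither was called at UUO-7. The miR-34 count was 3 lower without R-UUO replicate 1, and 1 lower with library size alone and without R-UUO replicates 2, 4 or 5 or sham replicates 2 or 4. The Hox-embedded miR-10 and miR-196 gave 1 higher and 1 lower of 10, and 0 higher and 4 lower with DESeq2 size factors. That count was 0 higher and 3 lower without R-UUO replicate 1, and likewise without R-UUO replicate 4 or sham replicate 3; it was 1 higher and 2 lower without R-UUO replicates 2 or 5 or sham replicate 2, and 3 higher and 1 lower with library size alone. Of the rodent-specific Sfmbt2 cluster 2 of 139 loci passed the filter and 0 were called. Of the erythroid markers 0 of 4 tested loci were called (4 higher with library size alone or without sham replicate 2), and the only muscle marker tested, miR-133a-3p, was called lower (log2 -1.75) on the strength of sham replicate 1, with 100 CPM there and 11.4 to 20.3 CPM in the other sham libraries. Without that library it measured -0.48 and was not called, and the call was also lost with library size alone, with the replicate block and without R-UUO replicates 1, 2 or 4 (-1.72, -1.70 and -1.63).

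Of the 10 most abundant loci over the 8 libraries, 4 were called. Beside miR-143-3p, miR-27b-3p and miR-181a-5p, this was miR-30a-5p, which fell by 0.64 (by 0.56, under the fold limit, without R-UUO replicate 1). miR-10a-5p was at 133400 to 166780 CPM in sham and 129940 to 185180 CPM in R-UUO (log2 0.08), and miR-26a-5p on chromosome 10 at 36335 to 43797 and 39343 to 42695 CPM (log2 0.07); both overlapped. miR-10b-5p, at 177370 to 247600 CPM in sham and 119150 to 171370 CPM in R-UUO, and let-7f-5p on chromosome X, at 62689 to 81817 and 41679 to 62142 CPM, were below sham in every R-UUO library by less than 1.5-fold. miR-22-3p, at 31451 to 39188 and 45842 to 54230 CPM, was above sham by less than 1.5-fold.

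Where both arms of a hairpin were called, they moved the same way in all hairpins but 1. Both arms were tested for 133 hairpins: both were called in the same direction in 37, in opposite directions in 1 (miR-27a), 1 arm alone in 35 and neither in 60. The 37 include the Dlk1-Dio3 hairpins of miR-127, miR-409, miR-411 and miR-434, whose arms were not called without R-UUO replicate 1. Of 44 seeds carried by more than 1 tested miRNA, 13 had 2 or more calls all in the same direction and 4 had calls in both. The clearest split was in the seed AGCAGCA. miR-15a-5p, from the Dleu2 intron on chromosome 14, fell from 361, 501, 419 and 480 to 122, 180, 126 and 172 CPM (log2 -1.55), while miR-15b-5p, from the Smc4 intron on chromosome 3, rose from 13.3, 16.6, 10.7 and 10.9 to 65.1, 39.1, 52.0 and 37.5 CPM (log2 1.90). Neither pair of groups overlapped. miR-16-5p, made at both sites, measured -0.44 and -0.43 at its 2 loci and was not called, and miR-322-5p had returned to sham levels.

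The changes that remained were compared with those in endothelial cells, macrophages and proximal tubule cells of the same design. The change after reversal differed between PDGFR-β+ cells and the mean of the other 3 populations at 172 of 671 tested loci (25.6%; 100 upward, 14.9%, and 72 downward, 10.7%). miR-146b-5p rose by 5.08 on the log2 scale in PDGFR-β+ cells and by 1.22, 1.55 and 0.80 in endothelial cells, macrophages and proximal tubule cells (difference from their mean 3.89, SE 0.23, adjusted p = 1.01e-20, edgeR). TMM factors were set anew over all 63 libraries in this fit, so that its CPM are higher for PDGFR-β+ cells than those given above. On that scale miR-146b-5p had a mean of 181 CPM in sham and 6144 CPM in R-UUO PDGFR-β+ cells, and of 2014 and 5912 CPM in macrophages. miR-21a-5p rose in all 4 populations, by 4.75, 2.33, 0.88 and 1.59 (difference 3.16, SE 0.31, adjusted p = 3.02e-12). miR-146a-5p rose by 2.39 in PDGFR-β+ cells and fell by 0.77 in macrophages. miR-155-5p, miR-125b-5p, miR-181a-5p, miR-222-3p and miR-15b-5p differed upward as well, by 1.68 to 3.79.

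Downward, miR-143-3p fell by 1.69 in PDGFR-β+ cells and rose by 2.02 in proximal tubule cells, with 0.79 and 1.02 in endothelial cells and macrophages that were not called (difference -2.97, SE 0.47, adjusted p = 1.17e-06). Without TMM factors the summed miR-143 and miR-145a cluster overlapped in proximal tubule libraries, at 2071 to 5181 CPM in sham and 4271 to 13360 CPM in R-UUO. In R-UUO PDGFR-β+ libraries it was 66050 to 118500 CPM. miR-338-3p fell by 2.98 in PDGFR-β+ cells, was not called in endothelial cells (0.28) or macrophages (-0.05) and rose in proximal tubule cells from a mean of 1.84 CPM to 12.1 CPM. miR-29c-3p fell in PDGFR-β+ cells, macrophages and proximal tubule cells, by 2.61, 1.23 and 0.92, and most in the first (difference -1.77, SE 0.24, adjusted p = 3.82e-08). For miR-214-3p the difference from the mean (1.51) hid a rise in macrophages of 3.77, from a mean of 2.51 to 34.4 CPM, and for miR-100-5p (0.42, SE 0.45, adjusted p = 0.626) and miR-132-3p (0.43, SE 0.30, adjusted p = 0.349) no difference was called.

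**Figure D4:**
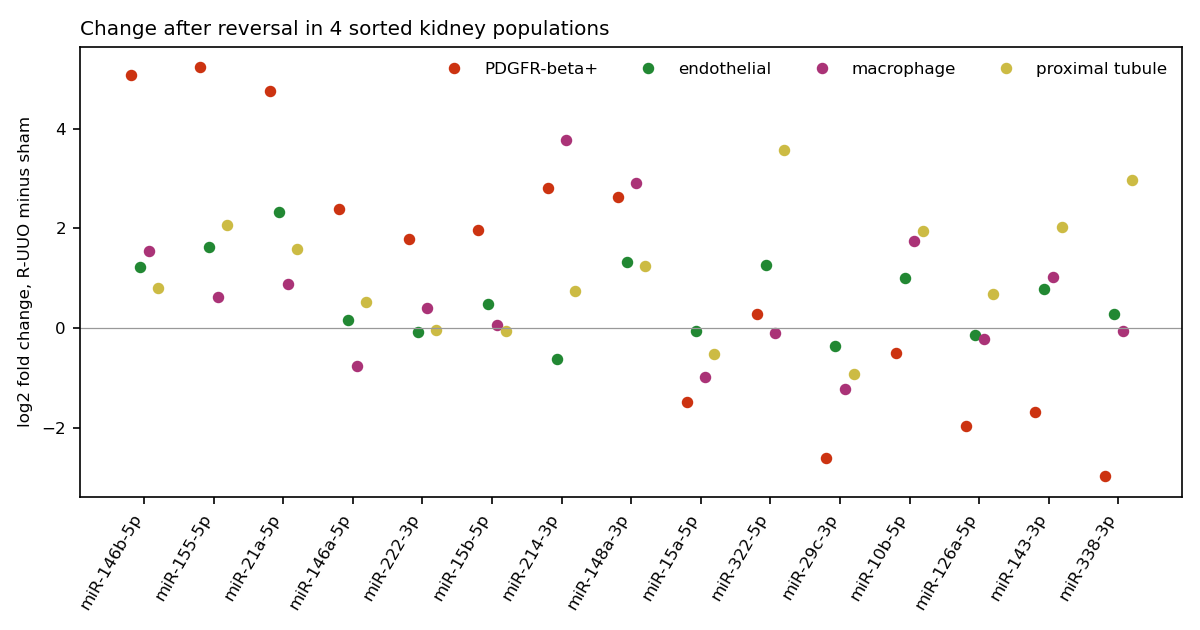
Log2 difference R-UUO minus sham of 15 miRNAs in 4 sorted kidney populations, 4 libraries per group and population, from the fit of all 63 libraries. miR-146b-5p, miR-155-5p and miR-21a-5p lie highest in PDGFR-β+ cells, and miR-143-3p and miR-338-3p are below 0 in PDGFR-β+ cells and above 0 in proximal tubule cells.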

How the data were processed

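Small RNA of sorted cells was sequenced. Per the submitters' processing notes and the study's methods, the authors ran FastQC, trimmed reads with Trim Galore 0.4.1 and cutadapt 1.1, used ShortStack, which calls Bowtie, for alignment to GRCm38 and miRBase, and tested with edgeR; strand and the handling of reads that match several loci are not given in the sources used here. The deposited table holds raw counts per miRNA locus for 63 libraries, with no normalization; the authors had removed 1 UUO-7 PDGFR-β+ library as an outlier, so 3 were used. A further column of counts names no sample, equals or exceeds the sum of the libraries at each locus, and was not used. Groups came from the sample labels.

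Low counts were filtered with filterByExpr, libraries were scaled by TMM, and edgeR 4.0.16 (R 4.3.3, limma 3.58.1) fitted glmQLFit and glmQLFTest to the 15 PDGFR-β+ libraries of all 4 conditions, with a prior count of 2 for fold changes. The biological coefficient of variation was 0.416. p-values were adjusted by the method of Benjamini and Hochberg over all 477 tested loci, and a call needed an adjusted p under 0.05 and a fold above 1.5. Standard errors were taken as the absolute log2 fold change divided by the square root of F. The difference between cell types was a contrast in a fit of all 63 libraries. A floor of 3 counts per library, which covers counting error only, bounded folds against groups at 0. Locus coordinates are those of the table, on GRCm38, and host genes come from GENCODE vM21. The code was tested on simulated counts.

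The members and the miRNA lists were chosen with earlier results of these data known. Named loci were the 15 steepest calls per direction without overlap between groups, the 10 most abundant loci, list members, the 8 steepest calls per direction at UUO-7 and the 10 largest differences between cell types. miR-125b, miR-99, miR-100, miR-148a, miR-15a and miR-15b, miR-322 to miR-450 and miR-296 fall outside this rule, wholly or in part, and were chosen after their values were seen. Alternatives were other scalings and tests, no filter, merged loci, a replicate block, fewer groups and each library left out, with DESeq2 1.42.0 as the second tool. The study gives 4 mice per group. Replicates showed no pair within sampling noise. The 10 tested loci that repeat the counts of an earlier locus were kept as rows.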

Additional observations from a re-analysis of the deposited data

Results flagged for a closer look

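Within the groups of 4 libraries, 134 groups of values (loci named above, total counts and the Dlk1-Dio3 sum) were screened for a library far from the other 3, and 18 were found. The cutoff passes about 1 in 20 groups of independent normal values. These values were unlogged CPM, several loci move together, and some groups had reads in 1 library only, so that no excess can be read from the count. Sham replicate 1 stood above its group for miR-100-5p (462 CPM), miR-148a-3p (2651 CPM), miR-222-3p (389 CPM), miR-30a-5p (26868 CPM), and, from a few reads, miR-139-3p (0.281 CPM), miR-433-3p (0.281 CPM) and miR-134-5p (0.421 CPM). Sham replicate 2 stood above its group for miR-3102-5p.2-5p (9.16 CPM) and sham replicate 3 for miR-223-3p (39.9 CPM). R-UUO replicate 4 had the highest total count (8769219). R-UUO replicate 1 stood above its group for the Dlk1-Dio3 sum (8946 CPM), miR-127-3p (3856 CPM), miR-134-5p (14.3 CPM), miR-433-3p (13.3 CPM), miR-125b-5p on chromosomes 9 and 16 (4160 and 3165 CPM) and miR-298-5p (176 CPM), and below it for miR-29c-3p (60.5 CPM).

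The change after reversal differed between PDGFR-β+ cells and the mean of endothelial cells, macrophages and proximal tubule cells at 172 loci, by the edgeR test of the difference itself; among 64 loci described, 40 did so. Upward log2 differences were 3.89 for miR-146b-5p, 3.79 for miR-155-5p, 3.57 for miR-21a-3p, 3.16 for miR-21a-5p, 2.47 and 2.45 for miR-125b-5p on chromosomes 16 and 9, 2.42 for miR-146a-5p and 2.21 for miR-125b-1-3p. Smaller ones were 1.79 for miR-15b-5p, 1.78 for miR-181a-5p, 1.68 for miR-222-3p, 1.51 for miR-214-3p, 1.27 for both miR-199a-5p on chromosome 1 and miR-221-3p, 1.22 for miR-99a-5p, 0.80 for miR-148a-3p and 0.65 for miR-99b-5p. The summed miR-199 and miR-214 list also rose in macrophages, from a median of 216.5 CPM in sham to 1845 CPM in R-UUO. The same medians were 3307 and 21540 CPM in PDGFR-β+ cells, 337.6 and 230.3 in endothelial cells, and 209 and 166.4 in proximal tubule cells.

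Downward, the miR-143 and miR-145a cluster gave -2.97 for miR-143-3p, -3.58 for miR-145a-5p and -2.98 for miR-145a-3p. miR-338-3p and the overlapping miR-3065-5p gave -4.04, miR-338-5p -3.54, miR-34b-3p -3.46 and miR-3105-3p -2.53. miR-126a-3p gave -2.25, miR-126a-5p -2.08, miR-10b-5p -2.07, miR-10a-5p -1.31, miR-29c-3p -1.77, miR-27b-3p -1.28, miR-23b-3p -1.17, miR-181c-5p -0.99 and miR-15a-5p -0.97. The X-linked stretch gave -2.41 and -2.33 for miR-450a-5p, -1.99 for miR-542-5p, -1.85 for miR-351-5p, -1.29 for miR-322-5p and -1.23 for miR-322-3p.

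The 10 largest differences included loci with very few reads in PDGFR-β+ cells, whose fitted values depend on the prior count and are no bound: miR-3569-3p (6.56), miR-3103-5p (5.85), miR-582-5p (5.38), miR-3061-5p (4.66), miR-3062-5p (4.64), miR-1191a (4.57), miR-20b-5p (-5.06) and miR-511-3p (-4.61).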

How the results depend on the processing

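The counts of loci called in R-UUO against sham (158 to 225), at UUO-7 (215 to 256), in both (134 to 191) and in the difference between cell types (141 to 197) stayed within 1.5 times their reported values under every alternative run. The count in R-UUO against UUO-7 (19) did not: it was 12 with library size only, 7 with only the 2 compared groups, 34 with DESeq2, 55 with no filter and 3 to 75 when 1 library was left out (75 without R-UUO replicate 1, 3 without UUO-7 replicate 5); the cause was not tested beyond the fewer libraries. The balance of directions moved with scaling: 66.8% of calls against sham were higher with TMM, 83.6% with library size only, 55.6% with DESeq2 size factors and 58.9% with DESeq2, and in the difference between cell types 58.1% with TMM and 79.6% with library size only. The difference in total count per library, R-UUO against sham, ran from -509055 (without R-UUO replicate 4) to 1647120 (without sham replicate 1). miR-223-3p ran from -0.71 to 1.85 when 1 library was left out and changed sign without sham replicate 3. Over the named loci, 3184 values kept their call or lack of one, 148 gained a call (44 loci) and 201 lost it (45 loci). Only 1 value changed sign with a call in either fit. Sign changes of loci called in neither fit are among the 3184, such as miR-379-3p without R-UUO replicate 1 (2.02 to -1.63). miR-10b-5p was called lower under 8 alternatives.

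Deviations of same-numbered sham and R-UUO libraries gave mixed correlations (r = 0.224, -0.127 and 0.198 for numbers 1, 2 and 4). Pairs of unlike number gave r from -0.18 to 0.0961, below the values of numbers 1 and 4. The numbers were not taken as pairs. With the replicate block 163 loci were called against sham, 223 at UUO-7, 142 in both, 25 in R-UUO against UUO-7 and, with the mouse as block, 163 in the difference between cell types. Depth limits the low loci: 24 called loci had under 10 reads in every sham library.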
